A study of Homo sapiens with 4 samples.

Results

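The CLCN5-hosted microRNA cluster is a run of small hairpin genes inside an intron of CLCN5 on the X chromosome, extending from MIR532 to MIR502. Its members here were chosen by name and not by any measured value. They are 8 mature miRNAs of the 1096 entries in the table: hsa-miR-532-5p, hsa-miR-188-5p, hsa-miR-500a-3p, hsa-miR-500a-5p, hsa-miR-362-5p, hsa-miR-501-3p, hsa-miR-660-5p and hsa-miR-502-3p. The prefix hsa- is left out of names below. All 8 were found in the table, which lists 516 catalogue miRNAs and 580 predicted entries. The libraries come from PC-3, an established human prostate cancer cell line of epithelial origin. There were 2 libraries from cells exposed to 10 µg/mL of apelin over 24 h (apelin 1 and apelin 2) and 2 from cells given no treatment (control 1 and control 2). Both groups were grown in DMEM with serum. Apelin is a secreted peptide that acts through the APJ receptor, and the comparison asks which miRNAs differ under it. No vehicle is stated for the controls. Nothing in the labels says whether a group's libraries are from separate cultures, and p-values here reflect no more than the variation among these libraries, which may be technical.

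A miRNA gene is transcribed as part of a longer RNA, from which Drosha cuts a hairpin and Dicer a short duplex. One strand of the duplex, from the 5′ arm (5p) or the 3′ arm (3p) of the hairpin, is loaded into Argonaute, and its seed (bases 2 to 8) pairs with target mRNAs. miRNAs that share a seed can therefore repress overlapping sets of targets. CLCN5, the host gene, encodes an endosomal chloride/proton exchanger known for its role in protein uptake by the kidney proximal tubule and is mutated in Dent disease. Members of the cluster have been studied in cancers of several tissues.

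The libraries held 5322429 and 5701358 counts with apelin and 6014838 and 5662879 counts in controls. Levels are given in TPM, which in this table is counts per 1000000 of the library total with no division by length. The members' listed lengths run from 22 to 25 nt. Where a member has 0 counts, its level could still reach 3 counts (0.499 to 0.564 TPM), a limit that covers counting error only, as do the count intervals below, since PCR copies were not told apart by molecular identifiers. Of 19 marker miRNAs for the labelled and other tissues, 12 were analysed here. The 4 analysed epithelial markers summed to 132.3 and 124.7 TPM with apelin and 154.6 and 164.2 TPM in controls. Of these, miR-205-5p stood at 72.3 to 81.0 TPM with apelin and 93.9 to 97.7 TPM in controls. miR-200c-3p stood at 23.0 to 25.9 TPM with apelin and 33.2 to 33.3 TPM in controls. miR-375-3p stood at 12.1 to 12.8 TPM with apelin and 17.0 to 17.7 TPM in controls, while miR-148a-3p overlapped, at 12.6 to 17.4 TPM with apelin and 10.5 to 15.7 TPM in controls. Markers of smooth muscle, skeletal muscle, white blood cells and liver each summed to at most 4.82 TPM in any library, with miR-143-3p, miR-1-3p, miR-133a-3p, miR-223-3p and miR-150-5p at 0 in at least 1 library. Of 3 red cell markers, 1 was analysed here, miR-486-5p, at 28.2 to 33.8 TPM with apelin and 35.7 to 37.1 TPM in controls. The endothelial marker miR-126-3p stood at 6.95 to 13.7 TPM with apelin and 6.32 to 7.24 TPM in controls. The part of these markers in the results was not tested.

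RefSeq (GRCh38.p14) gave a mature sequence for 7 of the 8 members, shown here because the cluster's members include near-copies that differ at few bases. Each is written 5′ to 3′ with the seed in capitals.
miR-502-3p: aAUGCACCugggcaaggauuca
miR-501-3p: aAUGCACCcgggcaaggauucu
miR-500a-3p: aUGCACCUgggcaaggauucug
miR-362-5p: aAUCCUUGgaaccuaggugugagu
miR-500a-5p: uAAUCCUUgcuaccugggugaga
miR-532-5p: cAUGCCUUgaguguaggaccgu
miR-188-5p: cAUCCCUUgcaugguggaggg

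The 3p members miR-502-3p, miR-501-3p and miR-500a-3p are nearly the same sequence. miR-502-3p and miR-501-3p share the seed AUGCACC and match at 20 of 22 bases, differing by U9C and A22U (miR-502-3p base first, positions counted from its 5′ end). miR-500a-3p starts 1 base further in, so its seed is UGCACCU. It matches miR-502-3p at 20 of 21 aligned bases, with A22U as the difference, and miR-501-3p at 20 of 21 aligned bases, with C9U as the difference (positions counted in miR-502-3p and in miR-501-3p). On the 5p side, miR-362-5p and miR-500a-5p hold AUCCUU in seeds offset by 1 base and match at 18 of 22 aligned bases. The seeds of miR-532-5p (AUGCCUU) and miR-188-5p (AUCCCUU) stand apart from these groups, though the mature miRNAs match each other at 14 of 21 aligned bases. Among all RefSeq human mature miRNAs, 4 hold UGCACC in the seed and 3 of these are members. Another 4 hold AUCCUU, of which 2 are members and the others, miR-500b-5p and miR-501-5p, come from hairpins of the same cluster and were not analysed here. The listed lengths of miR-500a-3p (23 nt), miR-500a-5p (25 nt) and miR-188-5p (22 nt) exceed their RefSeq lengths (22, 23 and 21 nt). Seeds and offsets here are those of RefSeq and may differ in the entries that were counted.

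The MIR500A hairpin (chrX:50008431-50008514, plus strand, GRCh38.p14) is shown because it is the hairpin with both arms among the members, which are in capitals.
MIR500A: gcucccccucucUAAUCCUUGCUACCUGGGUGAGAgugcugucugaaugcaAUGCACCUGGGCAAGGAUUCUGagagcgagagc

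The neighbouring hairpin MIR500B gives miR-500b-5p, aauccuugcuaccugggu, which is contained whole in miR-500a-5p at bases 2 to 19. A read of that stretch alone cannot be told apart between these hairpins. The sources used here do not say how reads that match several members were assigned, so the levels of miR-500a-5p and of the 3 near-identical 3p members are uncertain as a split of shared reads. No member had the same 4 counts as any other entry in the table.

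In GENCODE release 29 (GRCh38) the cluster spans 11.5 kb of chromosome X, from 50003148 to 50014683 on the plus strand, the strand of CLCN5 (49922615 to 50099235). Of the 9 annotated CLCN5 transcripts, 3 span the cluster, all of them protein coding, and none of these has an exon within it. In those 3 transcripts the cluster lies in an intron of 117.0 kb. The hairpins fall into groups along the intron. MIR532 and MIR188 are 264 bp apart, followed after 4842 bp by MIR500A, MIR362, MIR501 and MIR500B, with gaps of 449, 693 and 866 bp. MIR660 follows after 2490 bp and MIR502 after a further 1260 bp.

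Together the 8 members held 0.177% and 0.160% of the counts with apelin, and 0.168% and 0.167% in controls. These are sums of 9427 and 9148 counts with apelin, and 10080 and 9458 in controls. The apelin libraries lay on either side of both controls. The difference in share was 0.0015 percentage points, within the spread of the apelin libraries (exact permutation test over libraries, two-sided, p = 1, where 2 against 2 libraries cannot go below 0.333). It turned to -0.0068 without apelin 1 and was 0.0098 without apelin 2. With library totals scaled by edgeR's TMM factors, the shares were 0.173% and 0.167% with apelin and 0.171% and 0.161% in controls. On that scale control 2 was lowest, so the apelin libraries did not lie on either side of both controls.

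By mean TPM over the 4 libraries the order was miR-532-5p (496.7 TPM), miR-362-5p (433.5 TPM), miR-502-3p (219.6 TPM), miR-500a-3p (175.7 TPM), miR-501-3p (168.4 TPM), miR-660-5p (108.3 TPM), miR-500a-5p (76.3 TPM) and miR-188-5p (1.94 TPM). These levels ranked 82nd to 150th of the 516 catalogue entries for the upper 7, and 307th for miR-188-5p. Without miR-188-5p the members' mean levels spanned a 6.51-fold range. Some neighbours in this order did not separate beyond their spread. miR-532-5p was above miR-362-5p in 3 of 4 libraries, miR-500a-3p above miR-501-3p in 3 of 4, miR-501-3p above miR-660-5p in 3 of 4 and miR-660-5p above miR-500a-5p in 3 of 4. Other steps held in all 4 libraries with no overlap of their ranges. The lowest miR-362-5p level (380.4 TPM) was over the highest miR-502-3p level (240.1 TPM), the lowest miR-502-3p level (203.1 TPM) was over the highest miR-500a-3p level (196.2 TPM), and the lowest miR-500a-5p level (71.6 TPM) was over the highest miR-188-5p level (3.95 TPM).

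**Figure D1:**
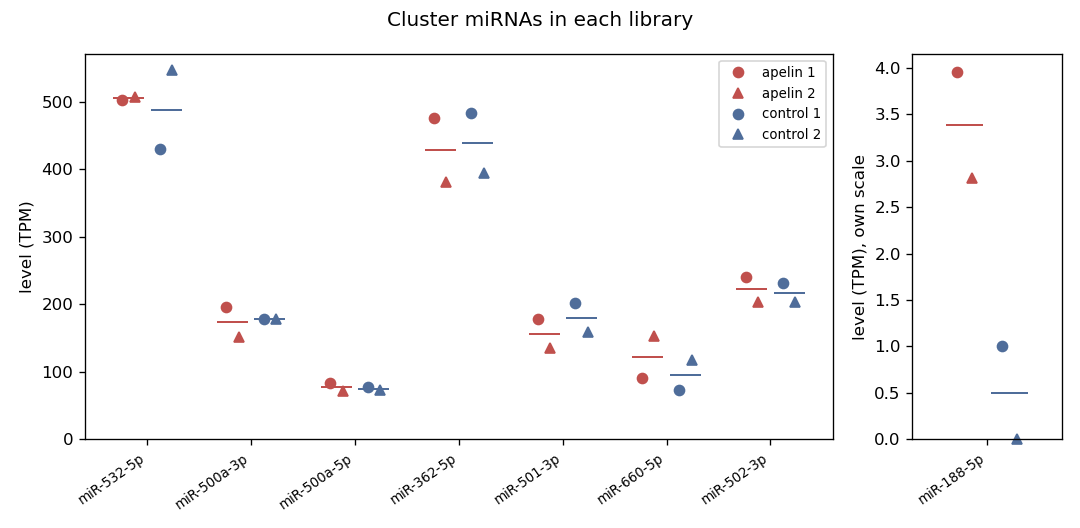
Level in TPM (y axis, from 0) of each member in each library, in the order of the hairpins, with apelin libraries in red, control libraries in blue and bars at the group means; miR-188-5p is on its own scale. The 7 abundant members overlap between groups, and miR-188-5p has 3.95 and 2.81 TPM with apelin and 1.00 and 0 TPM in controls.

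Level did not follow position. The widest gap lay between the closest neighbours: miR-532-5p, from the outermost hairpin, had 11250 counts over the 4 libraries, and miR-188-5p, whose hairpin starts 0.355 kb further on, had 43. Their ratio was 127 and 181 with apelin, 431 in control 1 and at least 1032 in control 2, where miR-188-5p was at 0 and is set to the limit of 3 counts. The hairpins lie 264 bp apart. In the middle group, miR-362-5p (433.5 TPM) stood above both arms of MIR500A summed (252.0 TPM) and above miR-501-3p (168.4 TPM). At the far end, miR-502-3p (219.6 TPM) stood above miR-660-5p (108.3 TPM) in all 4 libraries, by 1.34- to 3.15-fold.

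**Figure D2:**
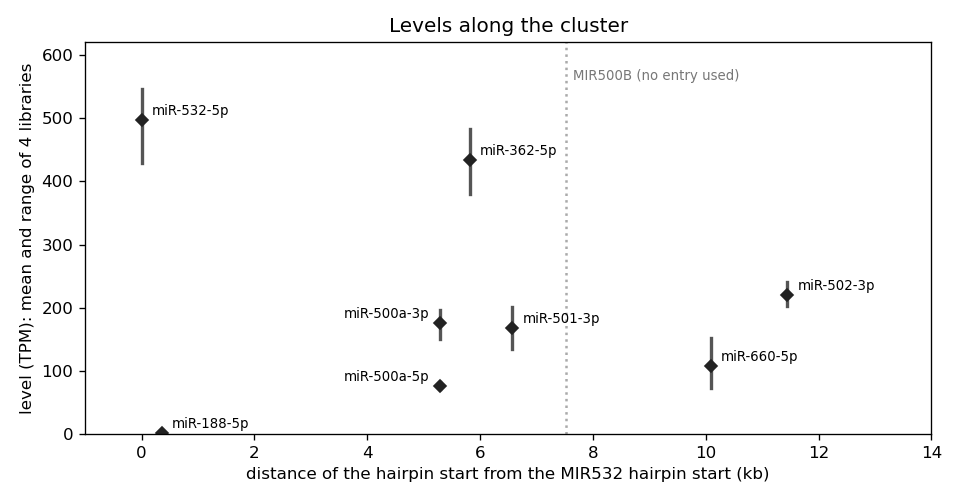
Mean level in TPM (diamonds) with the range over the 4 libraries (vertical lines) against the distance in kb of each hairpin's start from the start of MIR532. Levels are 496.7 TPM at 0 kb, 1.94 TPM at 0.355 kb and 219.6 TPM at 11.45 kb, with no steady trend along the cluster; the dotted line marks MIR500B, for which no entry was used.

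No member passed the test between apelin-treated and control cells. Of the 8 members, 7 reached the mean of 10 TPM needed for testing. edgeR's quasi-likelihood test called 0 of these 7, against 0 of 263 tested entries (0%), and 0 of 7 had an unadjusted p under 0.05, against 15 of 263 (5.7%). DESeq2 called 0 of the 7 and 53 of 263 entries (20.2%), and limma on log2(TPM + 1) called 0 of the 7 and 4 of 263. Fitted only to the 207 catalogue-listed miRNAs with reads in every library, a class that holds the 7, DESeq2 called 0. That fit was added after seeing the data. It does not say how many of the 53 entries were of that class, so the 20.2% is not a share for that class. On the same 207 miRNAs, edgeR with a replicate block called 30 and 0 of the 7 members. The apelin and control libraries overlapped for 7 of 7, so 0 parted, against 101 of 263 entries whose groups parted (38.4%). The fitted log2 fold change (apelin minus control) was positive for 4 members and negative for 3, with a median of 0.047. Over all 263 entries it was positive for 130 and negative for 133, with a median of -0.018.

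miR-532-5p, reported to repress the tumour suppressor RUNX3 in gastric cancer, was the most abundant. It had 503.0 and 507.4 TPM in apelin 1 and 2, against 429.6 and 546.7 TPM in control 1 and 2. Both apelin libraries lay between the controls. The fitted log2 fold change was 0.075, with SE 0.15 and a 95% interval of -0.43 to 0.58 (edgeR adjusted p = 0.873).

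miR-362-5p, reported to repress CYLD, an inhibitor of NF-kB signalling, in liver cancer cells, had 476.5 and 380.4 TPM with apelin and 483.5 and 393.8 TPM in controls. In each group the library numbered 1 was the higher one. The fitted log2 fold change was -0.022, with SE 0.21 and a 95% interval of -0.70 to 0.66 (edgeR adjusted p = 0.962).

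The 3 near-identical 3p members were close to one another in level. miR-502-3p had 240.1 and 204.0 TPM with apelin and 231.1 and 203.1 TPM in controls. miR-500a-3p had 196.2 and 151.2 TPM with apelin and 177.7 TPM in each control, so the apelin libraries lay on either side of both controls. miR-501-3p, whose rodent counterpart acts on glutamate receptor levels in neurons, had 178.1 and 134.7 TPM with apelin and 201.8 and 158.9 TPM in controls. Their log2 fold changes were 0.047 (SE 0.17) for miR-502-3p, -0.018 (SE 0.17) for miR-500a-3p and -0.20 (SE 0.25) for miR-501-3p, with edgeR adjusted p of 0.923, 0.962 and 0.795. Because reads may be split among them, their sum is also given: 614.4 and 489.9 TPM with apelin and 610.7 and 539.7 TPM in controls. The sums were 552.1 ± 88.0 TPM with apelin and 575.2 ± 50.2 TPM in controls (SD, n = 2 each), and the groups overlapped (exact permutation test, two-sided, p = 1, smallest possible 0.333).

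miR-660-5p, reported to repress MDM2 in lung cancer cells, varied most among the 7 tested members. It had 90.4 and 152.4 TPM in apelin 1 and 2, against 73.3 and 117.3 TPM in control 1 and 2. In each group the library numbered 2 was the higher one, and control 2 lay above apelin 1. Its highest level was 2.08 times its lowest, against 1.16 to 1.50 times for the other 6 tested members. The counts behind these levels were 481 and 869 with apelin (95% Poisson intervals 439 to 526 and 812 to 929) and 441 and 664 in controls (401 to 484 and 614 to 716), so libraries of 1 group differed by more than counting error. The fitted log2 fold change was 0.39, with SE 0.44 and a 95% interval of -1.05 to 1.83 (edgeR adjusted p = 0.759). It turned to -0.15 without apelin 2 and was 0.099 without control 1. Differences beyond counting error within a group were not particular to miR-660-5p. In TPM, the 95% Poisson intervals also parted within both groups for miR-362-5p, miR-501-3p and miR-502-3p. They parted within controls for miR-532-5p and within the apelin group for miR-500a-3p.

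**Figure D3:**
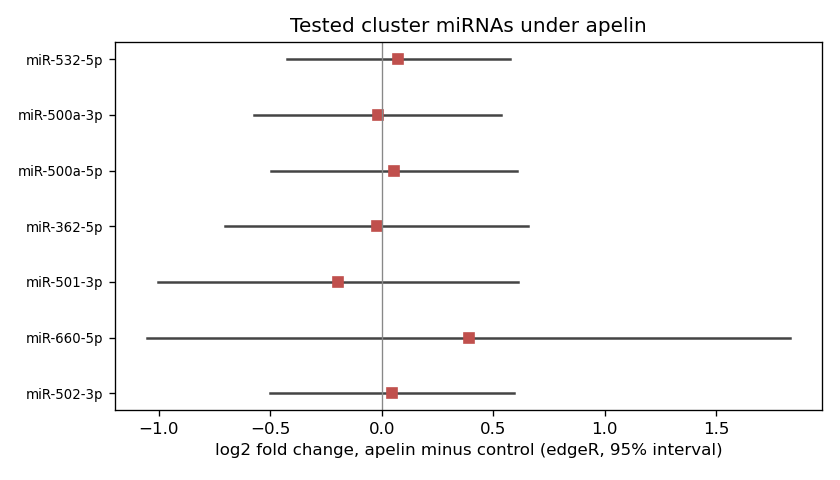
Log2 fold change, apelin minus control (squares), with its 95% interval from edgeR (lines), for the 7 tested members in the order of the hairpins. Each interval spans 0; the widest, for miR-660-5p, runs from -1.05 to 1.83.

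MIR500A is the hairpin for which both arms could be compared. miR-500a-5p had 83.0 and 71.6 TPM with apelin and 77.8 and 72.8 TPM in controls. Its fitted change on the log2 scale was 0.054 with an SE of 0.17 (edgeR adjusted p = 0.909). The 3p arm was the more abundant in every library. It made up 70.3% and 67.9% of the reads of both arms with apelin (95% Clopper-Pearson intervals 67.9 to 72.6% and 65.2 to 70.4%) and 69.6% and 70.9% in controls (67.2 to 71.8% and 68.5 to 73.3%). The share averaged 69.1% ± 1.7 with apelin and 70.2% ± 0.99 in controls (SD, n = 2 each). The shares differed by -1.18 percentage points, less than the apelin SD and more than the control SD (exact permutation test, two-sided, p = 0.667, smallest possible 0.333). This difference was -2.37 without apelin 1 and 0.0077 without apelin 2. Per read, miR-500a-3p stood 2.11 to 2.44 times as high as miR-500a-5p. The other arms of the cluster's hairpins were not analysed here, so arm use is given for MIR500A alone. The counts of both arms may include reads of near-identical miRNAs from other hairpins, which the intervals do not cover.

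The ratios between members differed in how steady they were over the 4 libraries. The steadiest pair was miR-502-3p over miR-500a-5p, at 2.89 and 2.85 with apelin and 2.97 and 2.79 in controls. Their hairpins, MIR502 and MIR500A, lie at 11.45 and 5.28 kb from the start of MIR532. The least steady pair was miR-501-3p over miR-660-5p, at 1.97 and 0.884 with apelin and 2.75 and 1.36 in controls. The 6 ratios with miR-660-5p varied by 1.76- to 3.11-fold between libraries. As shares of the cluster's counts, miR-532-5p held 28.4% and 31.6% with apelin and 25.6% and 32.7% in controls. miR-362-5p held 26.9% and 23.7% with apelin and 28.8% and 23.6% in controls. miR-660-5p held 5.10% and 9.50% with apelin and 4.38% and 7.02% in controls, while miR-500a-5p stayed between 4.36% and 4.69% in all 4 libraries. Grouped by seed, the 3 members with UGCACC held 34.7% and 30.5% with apelin and 36.4% and 32.3% in controls. The pair with AUCCUU held 31.6% and 28.2% with apelin and 33.5% and 27.9% in controls.

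**Figure D4:**
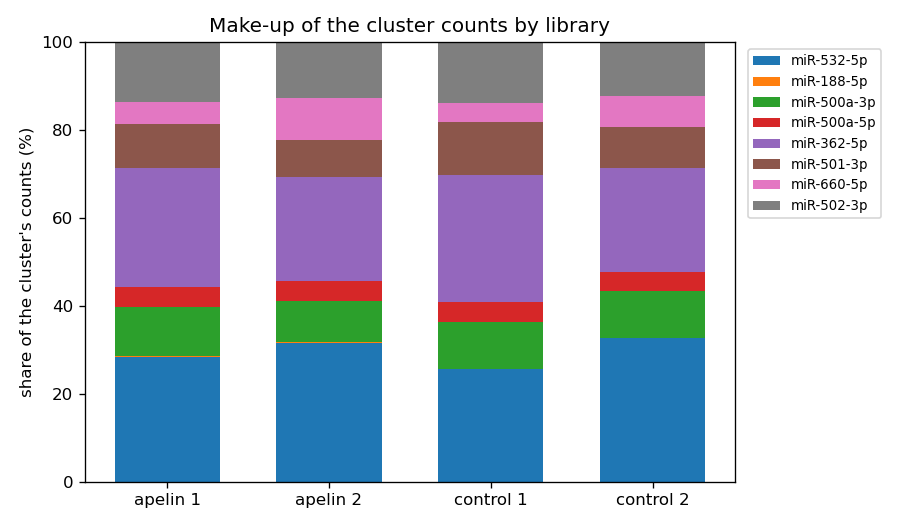
Share of the cluster's counts (y axis, percent) held by each member in each library, stacked in the order of the hairpins. miR-532-5p and miR-362-5p are the 2 widest bands in each library, and the miR-660-5p band is widest in apelin 2 (9.50%) and narrowest in control 1 (4.38%).

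miR-188-5p, which in mice shifts bone marrow stromal cells between bone and fat formation, was near the floor and was the member whose groups did not overlap. It had 21 and 16 counts with apelin, or 3.95 and 2.81 TPM, against 6 and 0 counts in controls, or 1.00 and 0 TPM. Both apelin libraries lay above both controls, as they did for 19 of the 126 catalogue entries with a mean of 1 to 10 TPM (15.1%). Groups parted in either direction for 49 of those 126 (38.9%). The 95% Poisson intervals on the counts were 13.0 to 32.1 and 9.15 to 26.0 with apelin and 2.20 to 13.1 in control 1. For the 0 in control 2 the interval was 0 to 3.69 counts (up to 0.651 TPM). This is above the limit of 3 counts (0.530 TPM) used elsewhere here. On counts, the interval of control 1 overlapped those of apelin 2 and, at its edge, apelin 1. As TPM, apelin 1 (from 2.44) lay above control 1 (up to 2.17), while apelin 2 and control 1 still overlapped. Summed over libraries, 37 counts with apelin against 6 in controls gave a 6.53-fold ratio of rates, with an exact interval of 2.73 to 18.9 that covers counting error between these libraries and not the difference between conditions. In the edgeR fit with the minimum lowered to 1 TPM its fitted log2 fold change was 2.70, with SE 2.15 (edgeR adjusted p = 0.749 over 471 entries), and it did not pass. It was 1.73 without control 2 and 3.60 with a replicate block. Over all 4 libraries with no block, edgeR at this minimum called 0 of 471 entries (0%), with 22 at an unadjusted p under 0.05, and DESeq2 at the same minimum called 48, miR-188-5p not among them.

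Across the libraries the members did not all move as one. Of the 8 members, 5 were lower in both libraries numbered 2 than in both numbered 1. These were miR-362-5p, miR-502-3p, miR-500a-3p, miR-501-3p and miR-500a-5p. The 2 members higher in both libraries numbered 2 were miR-532-5p and miR-660-5p, and miR-188-5p overlapped. No label ties the library numbers to a batch, and this pattern was not tested. The share of all entries that part between library numbers was not computed, so the pattern cannot be called particular to the members. Between apelin and control, 101 of 263 tested entries (38.4%) parted. Among the 5, miR-502-3p, miR-500a-3p and miR-501-3p are near-identical and may share reads. Relative to its own mean log2(TPM + 1), miR-660-5p stood at 0.54 in apelin 2 and -0.50 in control 1, while miR-501-3p stood at -0.30 in apelin 2 and 0.28 in control 1. miR-532-5p stood at 0.036 in apelin 2, -0.20 in control 1 and 0.14 in control 2. The members nearest to the mean profile of the 7 were miR-500a-5p and miR-502-3p, at root mean square distances of 0.053 and 0.083 over the 4 libraries, and the farthest was miR-660-5p at 0.41. Of 200 catalogue miRNAs outside the cluster, above 0 in all libraries and at a mean of at least 10 TPM, the 5 nearest to that mean profile were miR-222-3p (0.010), miR-425-5p (0.020), miR-99a-5p (0.038), miR-186-5p (0.038) and miR-183-5p (0.048). The median distance of the 200 was 0.18. The mean profile itself was nearly flat, from -0.044 in apelin 2 to 0.068 in apelin 1, so a small distance mostly marks an entry that varied little. Each of the 7 members is part of that mean and the outside miRNAs are not, so their distances are not alike.

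**Figure D5:**
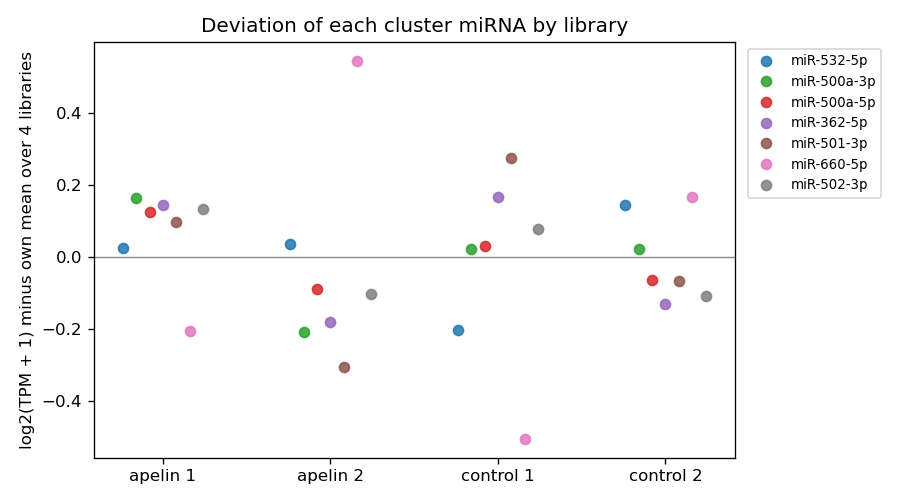
Log2(TPM + 1) of the 7 abundant members minus each one's mean over the 4 libraries (y axis), by library. miR-660-5p lies highest in apelin 2 (0.54) and lowest in control 1 (-0.50), where miR-501-3p lies at -0.30 and 0.28.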

How the data were processed

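Small RNA libraries of PC-3 cells were gel-selected at 140 to 160 bp, per the labels' protocols. The authors deposited 1 table with raw read counts and TPM per entry. Trimmomatic 0.30 and DESeq2 are named, per the submitters' processing notes; the sources used here name no aligner, miRNA catalogue or build. Deposited TPM equals counts per 1000000 of the library total, within 0.151. The listed length (nt) is as deposited.

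The members, lists and tests were chosen with earlier results of these data known. Named miRNAs were the 8 members, other arms of the same hairpins, seed-sharing miRNAs and the 5 nearest profiles. edgeR's quasi-likelihood test with TMM (apelin minus control, two-sided, Benjamini-Hochberg, threshold 0.05) was fitted on the 263 entries with a mean of at least 10 TPM and tested on simulated data. SE was taken as |log2 fold change| divided by the root of edgeR's F. Alternatives were DESeq2, limma, other scalings and filters, a replicate block and leaving out each library. Versions were R 4.3.3, edgeR 4.0.16, limma 3.58.1, DESeq2 1.42.0, Python 3.11.15, scipy 1.17.1, biopython 1.88 and matplotlib 3.10.9.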

Additional observations from a re-analysis of the deposited data

How the results depend on the processing

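Of the 7 tested members, 0 were called in edgeR and in each of 14 other settings, with adjusted p from 0.307 to 0.999 (DESeq2 on catalogue miRNAs above 0 in all libraries was added after seeing the data). The count of called entries over the whole table was 0 in edgeR, 53 with DESeq2, 4 with limma, 52 with no filter and 30 with a replicate block on catalogue miRNAs above 0 in all libraries, and was 0 to 19 with a library left out. With a replicate block on all 263 entries it was 0 and no member was called. DESeq2 fitted only to the 207 catalogue-listed miRNAs with reads in every library also called 0, against its 53 of 263. No label says that equal replicate numbers pair libraries; over 207 miRNAs the deviations of equal-numbered libraries had a correlation of 0.318. miR-501-3p kept a negative log2 fold change in all 14 settings, from -0.40 without control 2 to -0.0036 without control 1. The other 6 reversed in 10 of their values, each with a library left out. Over these fits miR-362-5p ran from -0.21 to 0.14 (0.037 without apelin 2), miR-500a-3p from -0.19 to 0.062, miR-500a-5p from -0.041 to 0.11 (-0.026 without apelin 1), miR-502-3p from -0.089 to 0.15 (-0.044 without apelin 1), miR-532-5p from -0.084 to 0.21 (-0.034 without apelin 2) and miR-660-5p from -0.15 (without apelin 2) to 0.73. The cause was not tested, except that these fits have fewer samples. miR-188-5p stayed positive and uncalled in the 8 settings that tested it beside the one reported, 7 of them added after seeing the data. It was 1.73 without control 2, 3.60 with a replicate block and 7.24 without control 1, where the remaining control is at 0 and the fitted value depends on the prior count (unadjusted p = 0.041, adjusted p = 0.829, edgeR). With a library left out the difference in cluster share ran from -0.0068 to 0.0098 percentage points and that in arm share from -2.37 to 0.0077, so both changed sign. In cluster share these values were under the apelin SD (0.012) and beyond the control SD (0.0004). In arm share, -2.37 was beyond the SD of each group (1.68 with apelin, 0.99 in controls). The differences in share of catalogue counts (0.00058) and of the TMM effective library (0.0036) were under the SD of each group. Shares with all arms of the cluster, and with the miR-500b arms added, were not run, since those entries were not analysed here. At 43 counts in all, depth limits miR-188-5p.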
